A study of Mus musculus with 4 samples.

Results

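The values compared here come from a pair of pooled lung samples, one taken 18 h and one taken 90 h after mice had inhaled an aerosol of HDI. The letters stand for hexamethylene diisocyanate, a hardener of polyurethane paints whose aerosol injures the lining of the airways. Lungs of the inbred strain C57BL/6J were taken whole for both pools, and both had been exposed at 10 mg per cubic metre. They were 2 of the 4 samples of the series, the others being unexposed lungs and lungs taken 6 h after exposure. Each pool was read on 1 array. Every probe set other than the array's controls was taken, 12422 of 12488 probe sets, whatever its value. The unexposed array was not used, so the text says how the 90 h pool differed from the 18 h pool and not whether either had returned to the state of unexposed lungs. The 6 h pool is given beside some genes as a description.

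The pools were 72 h apart, a whole number of days, but the sources used here do not give the hour of day at collection or the number of mice per pool. Pooling leaves 1 value per time, so there was no spread between animals, no test and no p-value, and every fold describes these arrays. In whole lung, fewer cells of a type and less RNA per cell cannot be told apart.

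After chemical injury, lung epithelium first switches on protective and alarm genes: metal-binding and antioxidant proteins, chaperones, acute phase proteins and clotting triggers. Surviving epithelial cells flatten and spread over denuded surface, with keratins and cornified-envelope proteins raised in them. Clearance of debris by macrophages, division of progenitor and stromal cells, and deposition of collagen and elastic fibres follow. These phases are textbook background and were not inferred from the values below.

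Values are scaled intensities: each array was scaled to a common trimmed mean, and intensities under a floor of 79.7 units were raised to it before log2 was taken. For a gene under the floor in 1 pool the fold is a lower limit, marked by the words at least. Of 8251 named genes, 5993 were above the floor in at least 1 pool and were compared, and 2258 were at the floor in both and say nothing. Most genes differed little, with 5533 of the 5993 within 1.5-fold and a median log2 difference (90 h minus 18 h) of 0.02. Of the 5993, 3179 lay above 0 and 2814 below it, the background for counts of list members by sign.

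At 90 h 54 genes were at least 2-fold higher than at 18 h, 0.901% of genes compared, and 57 were at least 2-fold lower, 0.951%. Of the higher genes 13 were bounds, and of the lower genes 18. Counted over probe sets, named or not, 69 of 7873 (0.876%) were higher and 74 (0.94%) lower. The number of genes in each direction was therefore alike. Of the 54 higher genes 21 belonged to any of the 55 gene lists used below, and of the 57 lower genes 27. Among these listed genes the kinds differed between the directions, and the remaining genes belonged to no list.

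**Figure D1:**
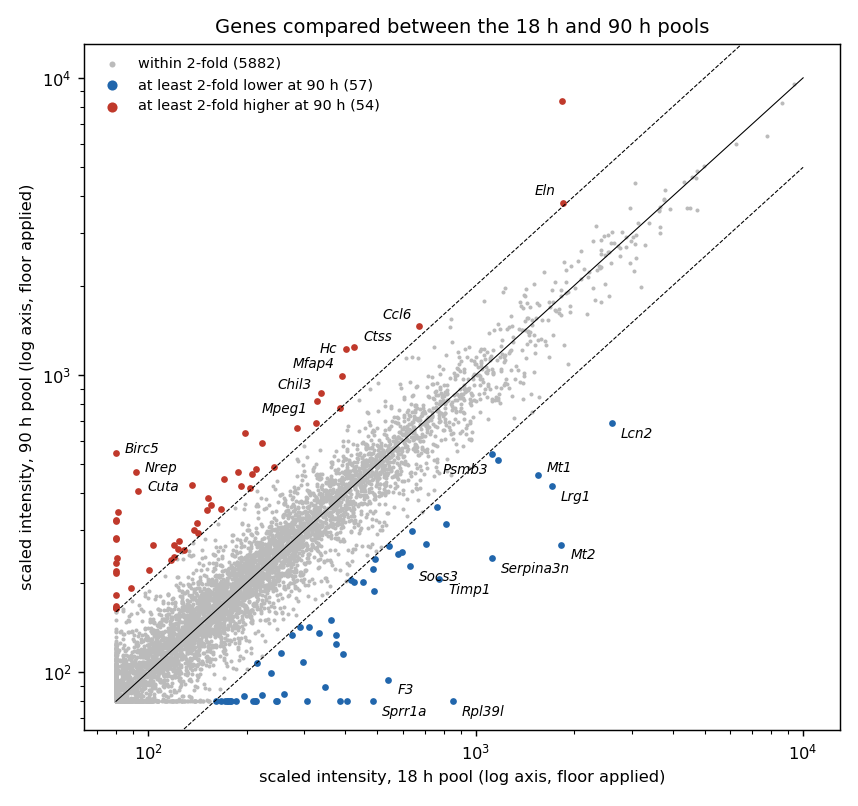
Scaled intensity of each of the 5993 compared genes in the 18 h pool (horizontal, log axis) and the 90 h pool (vertical, log axis), with the floor of 79.7 units applied. The solid line marks equal values and the dashed lines 2-fold; 57 genes lie below the lower dashed line and 54 above the upper one, with metallothionein and acute phase genes among the former.

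The error of a single difference can be judged only from genes with several probe sets. A probe set may carry a suffix that warns of binding to related transcripts, and is called marked here. The values of Angptl4, Eif4a1, Tubb5, Lsp1, Ctse and Junb come from marked probe sets, as do others named with their values. In 299 genes with 2 unmarked probe sets measured in both pools, the log2 differences by the 2 probe sets disagreed by a median of 0.20 and, in 1 gene of 10, by more than 0.57. That corresponds to a robust SD of 0.21 for a single probe set, and leaves out differences between animals, pools and hybridisations. Another probe set lay above the floor for 17 of the 111 genes past 2-fold (1.85%). In 13 of the 17 it had the same sign and in 6 it also passed 2-fold. The 9 bacterial spike-in probe sets, which took no part in scaling, were all higher on the 90 h array, with log2 differences from 0.14 to 0.30. The array's 3' Gapdh control probe set read 3062 in the 18 h pool and 2060 in the 90 h pool, and its 3' beta-actin probe set 8154 and 7748. The 3' to 5' ratios, a sign of RNA integrity, were 1.12 and 1.22 for Gapdh and 1.36 and 1.55 for beta-actin. Their part in the differences between the pools was not tested.

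The pools had the defining genes of lung. Sftpc, the surfactant protein of type II cells, read 9409 units at 18 h and 9525 at 90 h. Scgb1a1, the main secretory protein of club cells, read 8610 and 8245. Ager, a receptor abundant on type I cells, read 4342 and 4446, and Cdh5, the cadherin of endothelial junctions, 1105 and 1120. None of these differed by as much as the disagreement between probe sets of a gene. Sftpc, however, held the highest value of both arrays, 9416 units at 18 h and 9518 at 90 h before scaling, and Scgb1a1 lay close to it. Whether signal at this height was saturated was not tested, so Sftpc and Scgb1a1 say little about change.

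Among genes measured in both pools, the metallothionein gene Mt2 stood lowest at 90 h relative to 18 h. Metallothioneins are small cysteine-rich proteins that bind zinc and cadmium and are made in response to metals, oxidants and glucocorticoids. Mt2 read 4075, 1827 and 269 units at 6, 18 and 90 h, a 6.80-fold lower value at 90 h than at 18 h. Its neighbour Mt1 read 4008, 1551 and 459, 3.38-fold lower. Both were thus already lower at 18 h than at 6 h, and lower again at 90 h. Mt3, the brain-type family member, read 374 at 18 h and 364 at 90 h. Among the 8 compared genes of the metallothionein and zinc transporter list, Mt2 and Mt1 were the only ones past 2-fold, and the list's median log2 difference was -0.11.

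A second group of low genes were secreted proteins of the acute phase. Serpina3n, a serine protease inhibitor, read 755, 1124 and 241 units at 6, 18 and 90 h, 4.66-fold lower at 90 h than at 18 h. The plasma glycoprotein gene Lrg1 read 782, 1711 and 422, 4.06-fold lower. Lcn2, which binds bacterial iron carriers, read 848, 2600 and 687, 3.79-fold lower. All 3 were highest in the 18 h pool, unlike the metallothioneins. The second probe set of Lcn2 was at 286 units at 18 h and under the floor at 90 h, a log2 difference of -1.84 or lower.

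The acute phase did not move as a block. Of the 20 compared genes of the acute phase and airway defence list 3 were at least 2-fold lower and 1 higher, and the median was -0.25. Saa3, a serum amyloid A of inflamed tissue, read 182 and 103 units at 18 and 90 h, 1.77-fold lower. Cp, ceruloplasmin, read 773 and 468. The higher member was Chil3, the chitinase-like protein Ym1 that alveolar and alternatively activated macrophages secrete, at 337 units at 18 h and 871 at 90 h (2.59-fold).

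**Figure D2:**
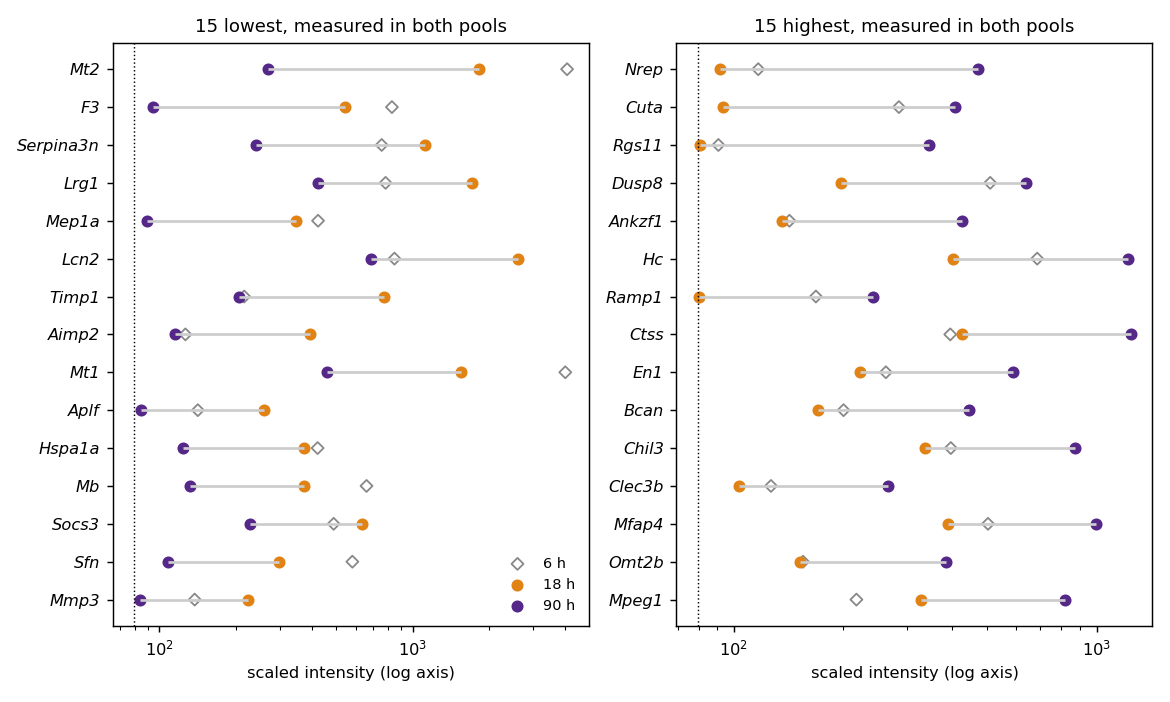
Scaled intensity (log axis) of the 15 genes with the lowest and the 15 with the highest log2 difference among genes measured in both pools, leaving out unnamed gene models such as Gm15772 (log2 difference 2.19), in the 6 h (open diamonds), 18 h (orange) and 90 h (purple) pools. The dotted line is the floor; Mt2, Mt1, F3 and Sfn were higher at 6 h than at 18 h, while Serpina3n, Lrg1, Lcn2 and Timp1 were highest at 18 h.

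The signalling genes that act upstream of the acute phase in textbook schemes were lower too. IL-6 family cytokines bind receptors that share one signalling chain, activate the transcription factor STAT3 and induce C/EBP factors and the feedback inhibitor SOCS3. Socs3 read 629 units at 18 h and 227 at 90 h, 2.77-fold lower, and its second probe set gave 330 and 117. Cebpd, C/EBP delta, read 1169 and 517, 2.26-fold lower, and the kinase gene Pim3, a STAT3 target, 215 and 107. The receptor gene Osmr, for oncostatin M, read 405 and 214 (1.89-fold lower), and Stat3 itself 486 and 343 (1.42-fold). Socs3, Cebpd and Pim3 were the 3 of 16 compared genes at least 2-fold lower; none was higher and the median was -0.23.

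Proteases, their inhibitors and the trigger of clotting were among the lowest single genes. F3, tissue factor, which starts clotting on injured surfaces, read 829, 541 and 94.3 units at 6, 18 and 90 h, 5.74-fold lower at 90 h than at 18 h. Timp1, an inhibitor of matrix metalloproteinases, read 216, 773 and 206, 3.76-fold lower, and Mmp3, stromelysin, 138, 223 and 83.9. Timp1 and Mmp3 were therefore highest in the 18 h pool of these 3, and F3 in the 6 h pool. The second probe set of Timp1 lay under the floor throughout. Of the 15 compared metalloproteinases and inhibitors Timp1 and Mmp3 passed 2-fold, both lower, and the median was 0.07 (mean -0.10). Mmp14, a membrane-bound collagenase, read 214 and 306. Among 12 clotting genes F3 alone passed 2-fold, with a median of 0.05 (mean -0.21). Vwf, made by endothelium and platelets, read 1325 and 1069.

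Genes of injured and transitional epithelium were lower at 90 h. Of 32 compared genes, 5 were at least 2-fold lower, none higher, and 25 were below 0, with a median of -0.46. The 5 were Sprr1a, Sfn, Hbegf, Krt18 and the tissue factor gene F3. Sprr1a, a cornified-envelope precursor of squamous cells, read 487 units at 18 h and 58.1 at 90 h, at least 6.11-fold lower. Sfn, 14-3-3 sigma of stressed epithelium, read 579, 297 and 108 at 6, 18 and 90 h, 2.75-fold lower at 90 h than at 18 h. Hbegf, a growth factor for epithelial cells that signals through the EGF receptor, read 594 and 254 (2.34-fold lower). Plaur, the urokinase receptor, read 153 and was under the floor at 90 h, at least 1.92-fold lower.

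Keratins of simple epithelia moved with them. Krt8 read 954 units at 18 h and 487 at 90 h, 1.96-fold lower, and its partner Krt18 545 and 265, 2.05-fold lower. Krt7 read 1560 and 842 and Krt19 1911 and 1092, 1.85-fold and 1.75-fold lower. The other probe set of Krt18 was dim and read 89.0 at 90 h only, and with both averaged the log2 difference of Krt18 was -0.44. Krt15 and Krt5, keratins of basal cells, did not follow. Krt15 read 84.6 and 134, a 1.59-fold higher value, and Krt5 was under the floor at 18 h and reached 123 at 90 h. They were the only 2 of 8 compared keratins above 0, and the other 6 lay below it, so basal keratins as a class are not described.

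Proteasome subunits made up the list with the lowest median. The proteasome is the barrel-shaped protease that degrades ubiquitin-tagged and damaged proteins, built from a core of alpha and beta rings and a regulatory cap with ATPases. Of 35 compared genes 34 were lower at 90 h than at 18 h, the median log2 difference was -0.65, and the quartiles of its members were -0.78 and -0.55. Only 2 passed 2-fold: Psma5, of the alpha ring, at 638 units at 18 h and 299 at 90 h, and Psmb3, of the beta ring, at 1122 and 540. Psmd14, the cap's deubiquitinase, read 498 and 256. The shift was thus small for each gene and shared across the list, against a median of 0.02 over all genes compared.

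All parts of the proteasome were lower by similar amounts. The 7 alpha subunits had a median of -0.77, the 7 constitutive beta subunits -0.62, the 6 cap ATPases -0.68 and the 12 other compared cap subunits -0.63. This division into parts was made after the values had been seen. The exception was Psmd10, an assembly chaperone of the cap, at 80.5 and 91.0 units, close to the floor. The interferon-inducible subunits that replace 3 of the beta subunits were not lower: Psmb8 read 349 units at 18 h and 432 at 90 h, Psmb9 95.1 and 163, and Psmb10 399 and 406.

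**Figure D3:**
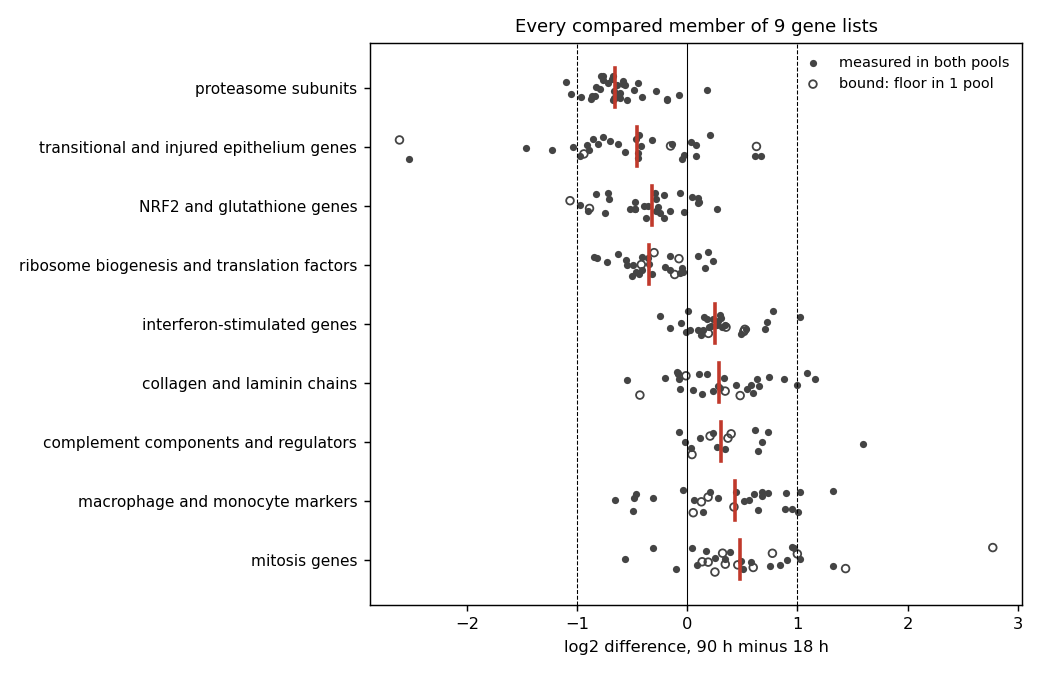
Log2 difference (90 h minus 18 h) of every compared member of 9 gene lists, filled where the gene was measured in both pools and open where 1 pool was at the floor, so that the point is a bound. Red bars are medians and dashed lines mark 2-fold. Of 35 proteasome genes, all measured in both pools, 34 lie below 0. Of 30 mitosis genes, 19 of them measured in both pools, 27 lie above it.

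Chaperones were lower, led by the inducible heat shock genes. Heat shock factor binds repeats of a short element and switches on HSP70 genes when proteins misfold. Hspa1a, an inducible HSP70 gene, read 422, 374 and 124 units at 6, 18 and 90 h, 3.02-fold lower at 90 h than at 18 h. Hspa1b, its near-identical neighbour, read 951, 813 and 316, 2.58-fold lower. The pair are shown by the 150 bases before the RefSeq start of each (build GRCm38.p6, both on the minus strand, chr17:34972157-34972306 for Hspa1a and chr17:34959239-34959388 for Hspa1b). These stretches differ at 1 base. The probe sets of such close copies need not be independent, which was not tested and which bases before the start cannot show. Capitals mark the heat shock element core GAANNTTC, searched on both strands.
Hspa1a: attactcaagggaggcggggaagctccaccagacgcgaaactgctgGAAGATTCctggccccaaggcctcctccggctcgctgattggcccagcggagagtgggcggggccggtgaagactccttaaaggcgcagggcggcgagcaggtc
Hspa1b: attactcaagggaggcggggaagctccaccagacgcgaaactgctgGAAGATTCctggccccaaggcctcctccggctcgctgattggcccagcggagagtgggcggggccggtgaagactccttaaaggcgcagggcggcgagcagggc
The core occurred in this window at 5 of 25 start sites of the heat shock list (20 of its 26 compared genes were in the table), against 3.95% of all 32851 start sites in the table and 2.57% of the 6220 that belong to compared genes. The 5 are not independent: they include the copies Hspa1a and Hspa1b, and Hspd1 and Hspe1, whose windows overlap on opposite strands.

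The rest of the chaperones shifted less. Of 26 compared heat shock proteins and partners, Hspa1a and Hspa1b were the 2 at least 2-fold lower, none was higher, and the median was -0.21. Hspb8, a small heat shock protein, read 352 units at 18 h and 185 at 90 h (1.90-fold lower), and its partner Bag3 296 and 201. Hspa4, of the HSP70 family, read 333 and 445, while its other compared probe sets lay below 0 (-0.36 to -0.14). The list of the chaperonin that folds actin and tubulin, which also holds genes of its co-chaperone prefoldin, was lower in 8 of 9 compared genes. Its median was -0.32 and none passed 2-fold. One of the 8, Cct6a, was lower (-0.38) by a marked probe set and higher (1.70) by its other one, and with both averaged it was higher (0.66). The chaperonin subunit gene Cct3 read 353 and 203, 1.74-fold lower.

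Antioxidant genes were lower at 90 h in 25 of 30 cases. Many of these genes are controlled by NRF2, a factor released when reactive chemicals modify its inhibitor KEAP1. The list also holds other antioxidant genes, such as Sod2 and Sod3, so it does not read NRF2 alone. The median was -0.32, with 1 gene at least 2-fold lower: Srxn1, sulfiredoxin, at 407, 167 and 35.3 units at 6, 18 and 90 h, which gives at least 2.09-fold lower at 90 h than at 18 h. Gclc, the catalytic subunit of glutathione synthesis, read 1540, 516 and 263, 1.96-fold lower, and Txnrd1, thioredoxin reductase, 931, 339 and 181, 1.87-fold lower. In Gclc and Txnrd1 most of the distance from the 6 h value to the 90 h value had already been covered at 18 h. For Srxn1 this cannot be said, because its 90 h value was under the floor. Hmox1, which degrades heme, read 525 units at 18 h and 319 at 90 h. Sod3, the extracellular superoxide dismutase, had the highest difference of the list, at 1186 and 1427.

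Among glutathione S-transferases, which couple glutathione to reactive chemicals, 10 of 16 were below 0, with a median of -0.22. Over all genes compared 2814 of 5993 were below 0. Gsta4, active on products of lipid peroxidation, read 237 units at 18 h and 98.9 at 90 h, 2.40-fold lower, and was the 1 member past 2-fold. Gstp1 read 1481 and 748 (1.98-fold lower), while Gstt1 read 405 and 502.

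Genes induced by fasting and glucocorticoids had a median of -0.33 over 26 compared genes, with 6 at least 2-fold lower and none higher. The 6 included Mt2, Mt1, Lcn2 and Cebpd. Sult1a1, a sulfotransferase, read 487 units at 18 h and 222 at 90 h, and Angptl4, an inhibitor of lipoprotein lipase, 493 and 239. Fkbp5, a co-chaperone of steroid receptors, read 154 at 18 h and was under the floor at 90 h, at least 1.93-fold lower. Dusp1, another glucocorticoid target, went from 1439 to 1752, so the list was not uniform.

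Genes for making ribosomes and starting translation were lower in 25 of 29 cases, with a median of -0.35 and none past 2-fold. Eif4a1, the helicase of translation initiation, read 714 units at 18 h and 397 at 90 h, and Fbl, which methylates ribosomal RNA, 361 and 234. Ribosomal proteins themselves did not shift, with 13 of 26 above 0 and 13 below and a median of 0.00.

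Several single genes outside the lists were lower, Rpl39l, Ankrd1 and C1ql1 by bounds and Mep1a, Aimp2 and Aplf measured in both pools. Rpl39l, a copy of a ribosomal protein gene, was under the floor at 6 h, read 851 units at 18 h and was under the floor again at 90 h, at least 10.7-fold lower. Ankrd1, a stress-induced nuclear protein of muscle and injured cells, read 281, 385 and 73.1 units at 6, 18 and 90 h, at least 4.83-fold lower at 90 h than at 18 h. C1ql1 read 411 and 305 at 6 and 18 h and was listed at 0 at 90 h. Mep1a, a membrane protease, read 346 at 18 h and 89.3 at 90 h, Aimp2, a scaffold of tRNA synthetases, 394 and 115, and Aplf, a DNA repair factor, 259 and 84.6. Rpl39l and Aimp2 stood out in the 18 h pool alone of these 3.

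Genes of cell division had the highest median of the 55 lists at 90 h. The median of its 30 compared members was 0.48, with 27 above 0 and 4 at least 2-fold higher, none lower. A gene above the floor in 1 pool only has its sign set by that pool. Over the 19 members measured in both pools the median was 0.49, under the 0.54 of macrophage and monocyte markers counted in that way. Birc5, survivin, which guides chromosome segregation and blocks apoptosis, was under the floor at 6 and 18 h (34.4 and 30.8 units) and read 545 at 90 h, at least 6.83-fold higher. Ccnb2, cyclin B2, was under the floor at 18 h and read 216 at 90 h, at least 2.71-fold higher. Hmgb2, a chromatin protein of dividing cells, read 188 and 470, 2.50-fold higher, by a marked probe set. Stmn1, a microtubule-destabilising protein, read 242 and 492, but its other probe set read 142 and 141.

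Other genes of mitosis were higher by smaller amounts. Cdc20, which activates the anaphase-promoting complex, read 104, 123 and 241 units at 6, 18 and 90 h, 1.96-fold higher at 90 h than at 18 h. Ccna2, cyclin A2, read 89.3 at 18 h and 173 at 90 h. Mki67, the Ki-67 antigen, was under the floor at 6 and 18 h and read 159 at 90 h, just short of 2-fold against the floor. The other compared probe set of Mki67 gave a log2 difference of 0.50. Tubb5, a tubulin that all cells use, was the lowest member at 1393 and 942. Many of these genes sit near the floor, so 13 of the 43 on the array could not be compared.

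Promoters of cell cycle genes are known for a pair of elements, the CCAAT box and the cell cycle homology region. The 150 bases before the RefSeq start are shown for Ccnb2 (chr9:70421555-70421704, minus strand), Cdc20 (chr4:118437344-118437493, minus strand) and Hmgb2 (chr8:57511693-57511842, plus strand), all in GRCm38.p6, as examples of members with matches, chosen after the matches were seen. Cdc20 fell short of 2-fold, and Birc5, the member with the largest difference, is not shown because it had no match. Capitals mark CCAAT and the homology region cores TTTGAA and TTCGAA, each searched on both strands. Cdc20 and Hmgb2 hold both elements in this window, and Ccnb2 holds CCAAT alone. In a wider window, from 250 bases before to 50 after the start, Ccnb2 also held 2 matches to the homology region cores.
Ccnb2: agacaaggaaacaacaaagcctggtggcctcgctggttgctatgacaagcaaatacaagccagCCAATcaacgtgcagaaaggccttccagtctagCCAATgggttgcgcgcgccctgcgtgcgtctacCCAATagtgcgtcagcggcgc
Cdc20: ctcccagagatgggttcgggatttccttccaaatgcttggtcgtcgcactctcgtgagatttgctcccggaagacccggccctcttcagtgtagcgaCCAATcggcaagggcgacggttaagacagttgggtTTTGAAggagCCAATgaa
Hmgb2: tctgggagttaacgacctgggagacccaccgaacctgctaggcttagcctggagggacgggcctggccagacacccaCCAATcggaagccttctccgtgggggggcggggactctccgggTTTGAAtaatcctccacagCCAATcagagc
CCAAT occurred in this window at 18 of the 24 start sites of the mitosis list (22 of its 30 compared genes were in the table), against 24.5% of all 32851 start sites and 26.5% of those of compared genes. TTTGAA or TTCGAA occurred at 9 of the 24, against 9.70% and 6.41%. In the wider window CCAAT occurred at 19 of the 24, against 37.4% and 36.7%. The homology region cores occurred there at 16 of the 24, against 19.2% and 13.9%. A match is a match of letters only.

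Genes of DNA replication shifted less than those of mitosis. Of 25 compared genes 18 were above 0, none passed 2-fold, and the median was 0.13. Top2a, the topoisomerase of replicating cells, was under the floor at 18 h and read 111 at 90 h. Slbp, which binds histone messages, read 110 and 155, while Pcna, the sliding clamp of DNA polymerase, read 324 and 305. Cdkn2c, an inhibitor of the cyclin D kinases, read 138 and 300, 2.18-fold higher, and was in no list.

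Macrophage genes were higher at 90 h. Of 28 compared markers of macrophages and monocytes 22 were above 0, 3 were at least 2-fold higher, none lower, and the median was 0.43. Mpeg1, a pore-forming protein of macrophages, read 218, 327 and 819 units at 6, 18 and 90 h, 2.50-fold higher at 90 h than at 18 h. The other probe set of Mpeg1 stayed under the floor at 18 and 90 h. Tyrobp, an adaptor of activating receptors, read 205 at 18 h and 415 at 90 h, and Ccr2, the receptor that draws monocytes from blood, 128 and 258. Csf1r, the growth factor receptor of the lineage, read 198 and 367 (1.85-fold) and Mrc1, the mannose receptor, 133 and 247 (1.86-fold).

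The macrophage list as a whole had a summed level of 12834 units at 18 h and 15792 at 90 h over its 36 genes on the array. At the floor in both pools were 8 of them, Marco, Msr1, Itgam, Siglec1, Aif1, Fcer1g, Fcgr2b and Fcgr3. A minority were lower: Cd14, the co-receptor for bacterial lipopolysaccharide, read 540 and 344, Lgals3, galectin-3, 940 and 681, and Plin2, which coats lipid droplets, 1265 and 904. Ccl6, a chemokine of macrophages, read 674 and 1462, 2.17-fold higher, and Ccl9 160 and 278. Ccl17, a chemokine of dendritic cells that attracts T cells, read 212 at 18 h and was under the floor at 90 h, at least 2.66-fold lower.

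Some single genes outside that list, picked after their values were seen, were also higher. Ptprc, the CD45 antigen of all white blood cells, read 167 units at 18 h and 355 at 90 h, 2.12-fold higher, although its other compared probe set gave a log2 difference of 0.23. Itgb2, the shared chain of leukocyte integrins, read 284 and 663, 2.33-fold higher. Lsp1, a leukocyte actin-binding protein, read 386 and 774 and by its second probe set 235 and 526. Abcg1, which exports cholesterol from macrophages, read 193 and 422, and Abca1, its partner in that export, was under the floor at 18 h and read 182 at 90 h. S100a8, a calcium-binding protein of neutrophils and monocytes, read 241 and 424, and S100a9 105 and 180. The neutrophil-specific genes Elane, Ly6g, Mmp8 and Cxcr2 stayed under the floor. The neutrophil list had a median of 0.23 over 13 compared genes, 11 of them above 0, with Itgb2 at least 2-fold higher and Lcn2 lower. The summed level of the list was 5309 at 18 h and 4283 at 90 h. Lcn2 sets that direction, since without it the sum was 2710 at 18 h and 3596 at 90 h.

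Lysosomal proteases were mixed. Ctss, cathepsin S, which trims antigens for presentation, read 395, 426 and 1243 units at 6, 18 and 90 h, 2.92-fold higher at 90 h than at 18 h. Ctsk, cathepsin K, a collagen-degrading protease, read 137 and 248, and Hexa, a lysosomal hexosaminidase, 284 and 523. Ctsh, which in lung is also a type II cell protease that processes surfactant protein, read 1677 and 1154, and Ctse 496 and 325. For Ctse the other compared probe set gave a log2 difference of -0.03 against -0.61, and for Hexa 0.29 against 0.88. Over 32 compared cathepsin and lysosome genes the median was 0.16, with Ctss the 1 member past 2-fold.

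Complement genes were higher, led by a terminal component. Hc, complement C5, read 686, 403 and 1221 units at 6, 18 and 90 h, 3.03-fold higher at 90 h than at 18 h. The 3 chains of C1q, which macrophages make, were close to each other: C1qa read 254 at 18 h and 395 at 90 h, C1qb 146 and 242, and C1qc 284 and 456. The list's median was 0.31; 14 of 16 compared genes lay above 0 and Hc was the 1 past 2-fold.

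Genes of antigen presentation were mixed, and most interferon-stimulated genes were higher. The MHC class II and dendritic cell list had a median of 0.16, with Ccl17 the 1 past 2-fold, lower. Above 0 were 10 of its 16 compared genes, against 3179 of 5993 over all genes. Within that list 6 class II chains and loading proteins, a subset picked after values were seen, had a median of 0.66. H2-Oa, a class II chain outside that subset, read 325 and 310. H2-Ab1 read 503 units at 18 h and 938 at 90 h, H2-Eb1 640 and 1151, and H2-Aa 1058 and 1776. The median of 30 interferon-stimulated genes was 0.25, and 26 of them lay above 0. Gbp2, an interferon-induced GTPase, read 120 and 244, 2.04-fold higher, and Tap1, which carries peptides to MHC class I, 193 and 315.

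T cell genes were higher by small amounts and B cell genes lay near 0. The T cell and NK cell list had a median of 0.23, with 9 above 0 of 11 compared genes and 29 on the array, with Cd2 at 86.6 and 150 units and none past 2-fold. The B cell list had a median of 0.07 in 15, with Cd79a, part of the B cell receptor, at 283 and 272. Lta, lymphotoxin alpha, was under the floor at 6 and 18 h and read 283 at 90 h by a marked probe set, and its other one stayed under the floor.

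Among matrix genes, elastin and the fibrillar collagens were higher at 90 h, while the matricellular and elastic fibre list as a whole lay near 0. Eln, elastin, read 1923, 1851 and 3804 units at 6, 18 and 90 h, 2.06-fold higher at 90 h than at 18 h, and its second probe set read 281 and 630. Mfap4, a microfibril-associated protein, read 390 and 994, 2.55-fold higher, by a marked probe set, while its other one stayed under the floor. Ltbp2, which binds fibrillin, read 225 and 354. Tnc, tenascin C, an injury-induced matrix protein, moved the other way at 465 and 249, as did Ccn2, connective tissue growth factor, at 914 and 578. Bcan, brevican, a proteoglycan known best from brain, read 171 and 446, while its other probe set stayed under the floor. Eln, Mfap4 and Bcan were the 3 of 25 compared matricellular and elastic fibre genes at least 2-fold higher; none was lower and the median was 0.08.

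Fibrillar collagens were higher in all 5 compared chains. Col3a1, of type III collagen, read 840 units at 18 h and 1546 at 90 h (1.84-fold), Col1a2 747 and 1247 (1.67-fold) and Col1a1 1211 and 1898 (1.57-fold). Other compared probe sets gave log2 differences of 0.70 and 0.92 for Col3a1, 0.25 for Col1a2 and 0.43 for Col1a1. The 5 compared fibrillar chains had a median of 0.65, and the 4 compared chains of basement membrane collagen IV a median of -0.08, in a division made after values were seen. Col6a3, a chain of microfibrillar collagen VI, read 325 and 690, 2.12-fold higher. Lamc1, the common laminin gamma chain, read 208 and 465 by a marked probe set, while its other one stayed under the floor. The collagen and laminin list had a median of 0.29 over 30 compared genes, with Col6a3 and Lamc1 at least 2-fold higher and no gene lower.

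**Figure D4:**
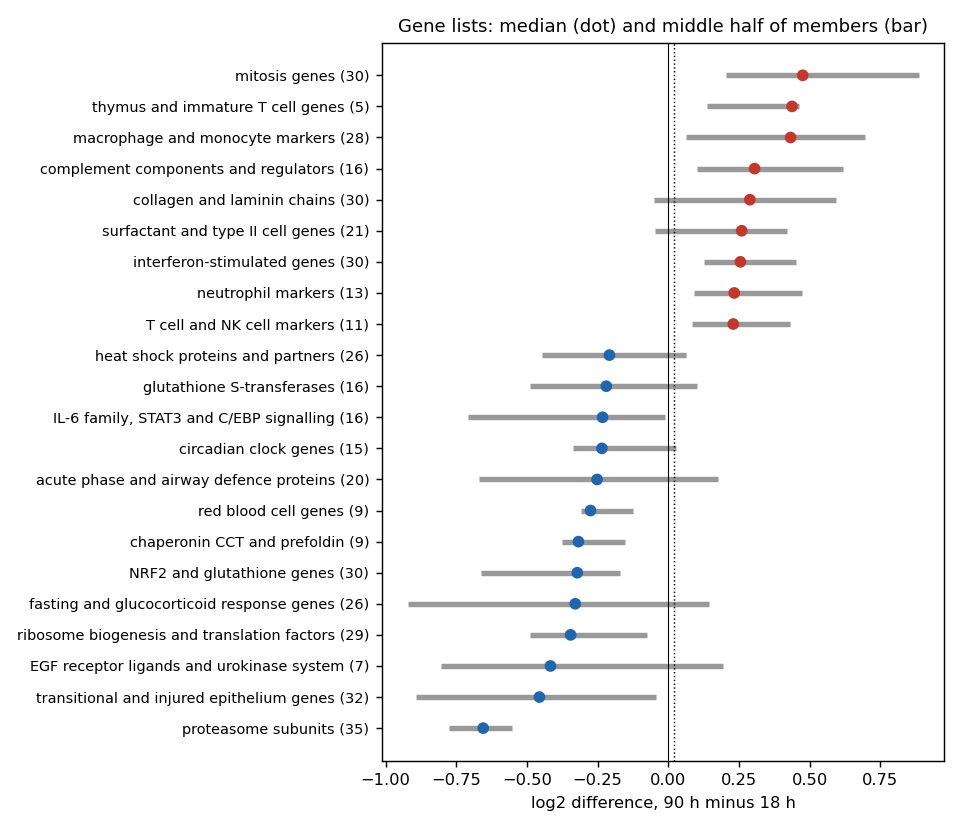
Median log2 difference (90 h minus 18 h, dots) and the range between the quartiles of the compared members (grey bars) for the 22 lists whose median was more than 0.2 from 0, with the number of genes compared in brackets. The dotted line is the median of all genes, 0.02; proteasome genes lie lowest at -0.65 and mitosis genes highest at 0.48.

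Several of the genes furthest above the 18 h pool had no common role. Nrep, a neuronal regeneration-related protein, read 117, 91.5 and 470 units at 6, 18 and 90 h, 5.14-fold higher at 90 h than at 18 h. Rgs11, a regulator of G protein signalling, read 80.7 and 345, while its other probe set stayed under the floor. Ramp1, a partner of the CGRP receptor, read 80.4 and 241. The homeobox gene En1 read 223 and 589, and Omt2b 152 and 385. By bounds, Dsc3, a desmosomal cadherin, was listed at 0 at 18 h and read 323 at 90 h, and Snx27, a sorting nexin, was under the floor and read 280.5. Ssbp2, a DNA-binding cofactor, was under the floor at 18 h and read 325 at 90 h. Cuta read 285, 93.3 and 407 by a marked probe set, with its other one under the floor, and Dusp8, a phosphatase of stress kinases, 509, 197 and 638. Cuta and Dusp8 were low in the 18 h pool alone of these 3, and the other probe set of Dusp8 read 144 at 18 h and 151 at 90 h. Ankzf1 read 136 and 426 by a marked probe set, while its other compared probe sets gave log2 differences of -0.09 and 0.41. Clec3b, tetranectin, read 104 and 267, and Sox4, a transcription factor, 151 and 351 with 160 and 327 by its second probe set. The unnamed gene model Gm15772, singled out after its value was seen, read 1751, 1840 and 8381, 4.56-fold higher at 90 h than at 18 h.

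Lung epithelial lists shifted less than the list of injured and transitional epithelium, whose median was -0.46. Surfactant and type II cell genes had a median of 0.26 in 21 compared genes, none past 2-fold. Scd1, a fatty acid desaturase, read 3067 units at 18 h and 4412 at 90 h and Lyz2, lysozyme, which macrophages share, 2335 and 3170, while Sftpb, surfactant protein B, read 4529 and 3661. Type I cell genes had a median of -0.13 in 12, with Pdpn, podoplanin, at 601 and 354. Club cell genes had a median of -0.03 in 16 and ciliated cell genes -0.15 in 9. Endothelial genes had a median of -0.14 in 37, with Lyve1, a hyaluronan receptor of lymphatic vessels and some macrophages, at 1077, 322 and 176 at 6, 18 and 90 h.

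Single muscle genes were lower at 90 h, and the muscle lists shifted little. Acta1, skeletal muscle actin, read 629 and 404 units at 6 and 18 h and was under the floor at 90 h, at least 5.07-fold lower. Mb, myoglobin, read 374 and 133, 2.82-fold lower, with 207 and 146 by its other probe set. These were the 2 of 32 compared heart and skeletal muscle genes past 2-fold (median -0.17), and the list's summed level over 45 genes was 9889 at 18 h and 8261 at 90 h. The defining muscle genes Myl1, Mylpf, Tnnt3 and Casq1 were at the floor in both pools. Smooth muscle genes had a median of -0.16 in 18, with Myh11 at 534 and 342. Red blood cell genes had a median of -0.28 in 9, none past 2-fold. The globin genes Hba-a1 and Hbb-b2 read 7734 and 2950 units at 18 h and 6390 and 2389 at 90 h. The part of tissue and blood content in the other results was not tested.

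Metabolic lists moved by small amounts. Sterol pathway enzymes were lower in 10 of 11 cases, with a median of -0.45 and none past 2-fold, a subset defined after values were seen. Idi1, which makes isoprenoid units, read 195, 405 and 234 units at 6, 18 and 90 h, 1.73-fold lower at 90 h than at 18 h, and Sqle, squalene epoxidase, 162, 259 and 166. Fatty acid genes of the same list were not lower, and its median over 18 genes was -0.14. Glycolysis and hypoxia genes had a median of -0.18 in 24, with Pgk1 at 518 and 309, and respiratory chain genes -0.09 in 51.

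Clock genes had a median of -0.23 in 15 compared genes, none past 2-fold. Nr1d1, a repressor of the clock, read 375, 138 and 87.0 units at 6, 18 and 90 h, and Arntl, the clock activator it represses, 101, 123 and 193. They differed in opposite directions between 18 and 90 h, 1.59-fold lower and 1.56-fold higher.

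Immediate early genes (median -0.04 in 28), p53 targets (-0.07 in 11), genes of the integrated and unfolded protein stress responses (-0.10 in 27), NF-kB pathway genes (-0.05 in 20) and apoptosis regulators (0.03 in 24) lay near the median of all genes. Junb, an AP-1 subunit, was still lower at 90 h, at 839 and 460 units, and Cdkn1a, the p53 target that encodes p21, read 1046, 399 and 319 at 6, 18 and 90 h. Growth factor signalling genes of the WNT, BMP, FGF and TGF-beta families had a median of 0.11 in 40, with Tgfb3 at 217 and 330 and none past 2-fold. EGF receptor ligands with the urokinase system had a median of -0.42 in 7, with Hbegf the 1 past 2-fold, and thymus genes 0.44 in 5. Of the 55 lists 13 had a median under -0.2, 9 one over 0.2, and 33 lay between.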

How the data were processed

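Total RNA of pooled whole lungs was read on 1 oligonucleotide array per pool. The authors deposited 1 linear intensity per probe set; which software and scaling made it is not stated in the sources used here. The deposited values hold exact zeros (105 at 18 h, 126 at 90 h) and none below 0.

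The 18 h and 90 h arrays were scaled by 0.999 and 1.001 to the same mean after trimming 2% at each end. The floor was the 40th percentile of both. Platform annotation gave 1 symbol for 10833 probe sets, several for 396, and 1193 were not listed; only the first were named. A gene was represented by its brightest probe set. Genes were called at 2-fold. The 55 lists (1340 genes on the array) and the comparison were chosen with earlier results of these data known. Named were the 15 highest and 15 lowest measured genes, the 5 largest bounds per direction and up to 6 members per list (the last not all printed), passing over unnamed cDNAs, clone names and gene models such as Gm15772; other genes, most of them given to show a list's spread or a related gene, were chosen after their values were seen. Promoters came from RefSeq (GRCm38.p6). The code was tested on simulated data. Python 3.11.15, pandas 2.3.3 and limma 3.58.1 were used.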

Additional observations from a re-analysis of the deposited data

How the results depend on the processing

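No paired analysis was possible because each time had 1 array. The counts depended on the floor and the threshold. With the floor at the 25th percentile 76 genes were higher and 91 lower (114 probe sets lower), and at the 60th percentile 35 and 37 (43 and 44 probe sets). At 1.5-fold 220 genes (277 probe sets) were higher and 240 (315) lower, and at 3-fold 13 (17) and 18 (19). Without scaling and with median, quantile or cyclic loess scaling, 48 to 54 genes were higher and 57 to 63 lower. A pseudocount of 32 in place of the floor gave 55 higher and 63 lower genes, of which 40 and 45 were among those reported. With median scaling 1 macrophage gene in place of 3, and no interferon-stimulated gene in place of 1, was at least 2-fold higher. Of 66 named genes past 2-fold, 37 stayed past it in every alternative that compared them, and none changed sign. Averaging the probe sets of a gene brought Timp1, Mpeg1, Mfap4, Bcan, Stmn1, Lamc1, Dusp8, Ankzf1, Krt18, Srxn1, Sult1a1 and Angptl4, among others, under 2-fold; a probe set at the floor in both pools lowers such an average by construction. In an alternative chosen after seeing the data, leaving out Lcn2 turned the log2 ratio of the summed neutrophil markers from -0.31 to 0.41. All 22 lists with a median of at least 0.2 in size kept its sign in every alternative. Depth cannot be stated for arrays; genes near the floor are the least certain.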
